A study of Mus musculus with 2 samples.

Results

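The genes described here are the 8 PDGF and FGF ligand genes *Pdgfa*, *Pdgfb*, *Pdgfc*, *Pdgfd*, *Fgf1*, *Fgf2*, *Fgf7* and *Fgf10*, chosen by symbol among the 50768 genes of the count matrices because their receptors are targets of the kinase inhibitor nintedanib. To examine which cells of the salivary gland held each ligand transcript, and how this differed between strains, raw UMIs (unique molecular identifiers, each counting a captured transcript) were read in barcodes with at least 500 UMIs and 300 genes. Salivary glands of female NOD/ShiLtJ mice, an inbred strain that develops a Sjögren-like disease, were compared with those of age-matched outbred CD1 mice. Both were 20 weeks old and untreated, and the submandibular glands were pooled together with sublingual glands. EpCAM-positive epithelial cells, Ter119-positive red blood cells and dead cells were depleted from both, and both libraries are labelled batch 1. There was 1 library per strain, made from a pool of 3 mice by the labels and of 4 mice by the study's methods, and the sources also differ on the digestion enzymes (Liberase and dispase, or collagenase, hyaluronidase and dispase). No test between strains was therefore possible. All intervals are 95% intervals that cover counting error only, not the spread between mice, and strain, pool and library cannot be told apart.

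Platelet-derived growth factors act as dimers on the receptors PDGFRα and PDGFRβ of mesenchymal cells. PDGF-A and PDGF-C act mainly through PDGFRα and drive fibroblast growth, PDGF-B from endothelium recruits PDGFRβ-bearing pericytes to vessels, and PDGF-C and PDGF-D need proteolytic activation. FGF1 and FGF2 lack a classical signal peptide and bind heparan sulfate, whereas FGF7 and FGF10 are secreted by mesenchyme and act on epithelial FGFR2, and FGF10 is required for salivary gland development.

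The NOD library kept 6500.0 barcodes with 43439635 UMIs and the CD1 library 7014 with 49420810. A barcode was given the lineage whose marker list had the largest excess of UMIs over the level in empty droplets, and is called "-like" for that reason. Among 13514 barcodes, 10581 were assigned. Endothelial-like barcodes numbered 955 in NOD and 2399 in CD1, macrophage-like 703 and 2705, T-like 1680 and 93, NK-like 571 and 360, and B-like 850 and 8. Stromal classes were small despite the label of stromal enrichment, with 56 and 15 fibroblast-like and 14 and 16 mural-like barcodes. All 8 defining markers were detected in each of these 7 classes in both libraries. Between 0 and 58 barcodes of a class lay just inside the assignment limit, at 60% to 70% of the marker excess. Doublets were kept, and 18 barcode sequences occurred in both libraries.

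Each ligand was assigned to the lineage with the highest level over both libraries, among 11 lineages with at least 20 barcodes. Levels are counts per 1000000 UMIs (CPM) of a lineage and are not scaled for transcript length, so that they are compared between lineages and strains and not between genes. Endothelial-like barcodes led for *Pdgfb* and *Pdgfd*, mural-like barcodes for *Pdgfa*, *Pdgfc* and *Fgf1*, and fibroblast-like barcodes for *Fgf2*, *Fgf7* and *Fgf10*. The lead over the next lineage had an interval that held 0 for *Pdgfc* (log2 ratio to epithelial-like barcodes 0.99, -0.10 to 2.14) and for *Fgf2* (to mural-like barcodes with 4 UMIs, 0.79, -0.72 to 2.76), so that their order was not resolved at this depth. Of the 17255 genes with at least 50 UMIs, 9.71% had their highest level in endothelial-like, 14.3% in mural-like and 11.2% in fibroblast-like barcodes. The lineage with the highest level was not always the one with the most transcripts. Macrophage-like barcodes held 52.4% of the *Pdgfa* UMIs in NOD and 73.0% in CD1, and endothelial-like barcodes held 61.2% and 64.9% of the *Fgf1* UMIs. For *Fgf2* the libraries differed, with 6.28% of the UMIs in macrophage-like and 57.6% in T-like barcodes in NOD, and 87.3% and 0.184% in CD1.

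**Figure D1:**
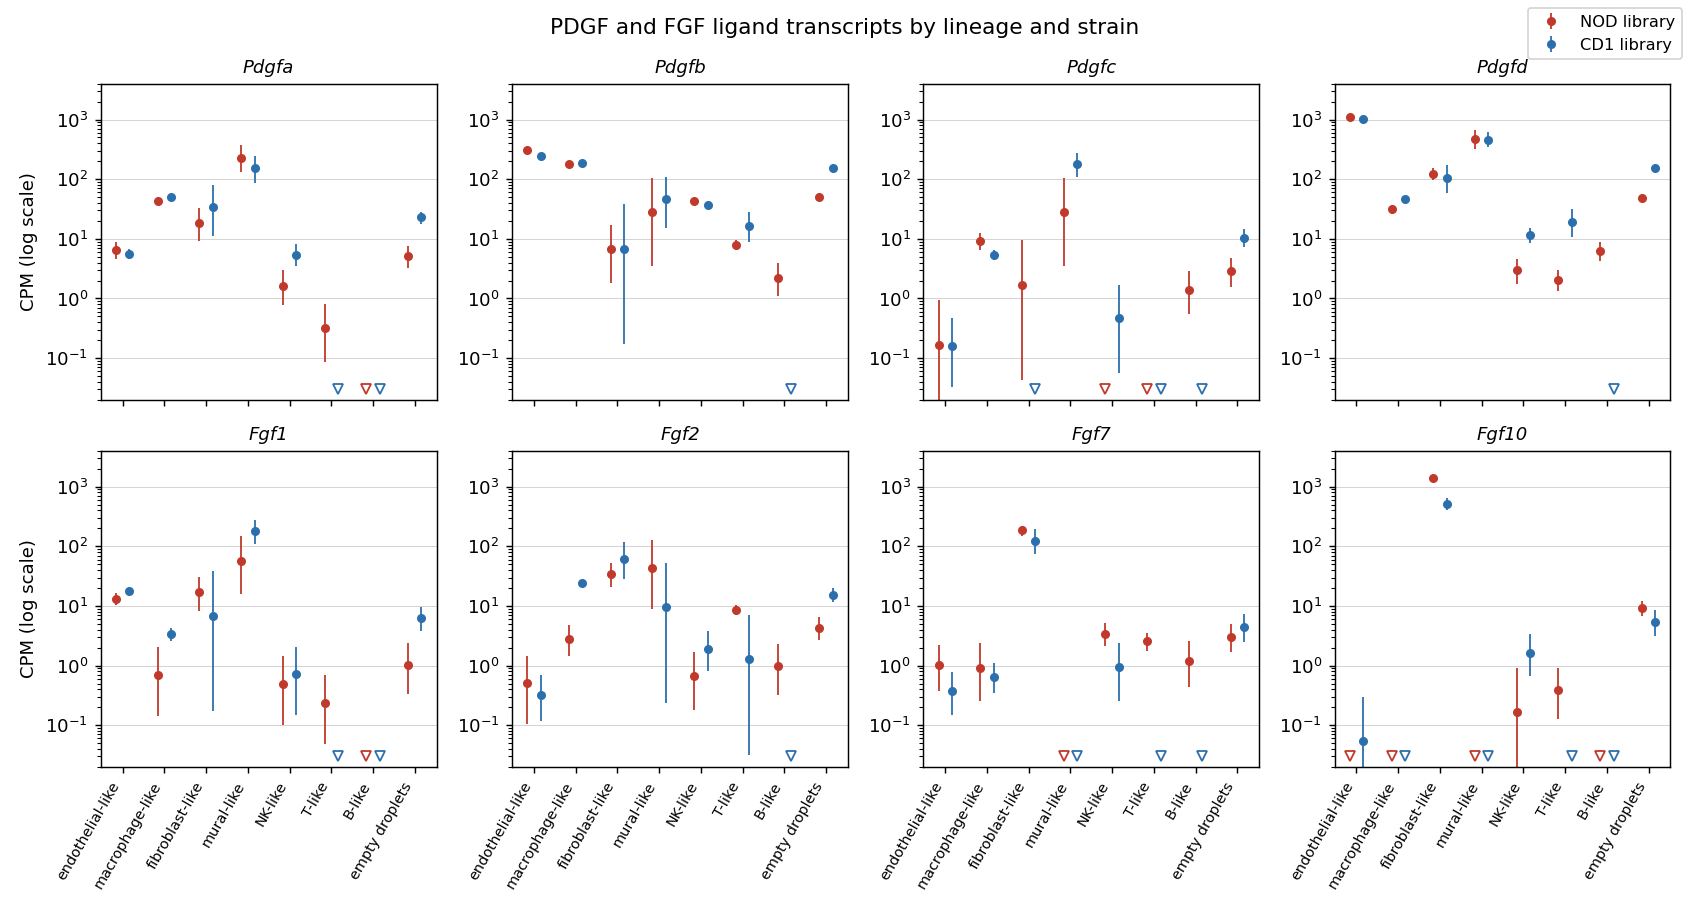
Level of each ligand (CPM, log scale) in 7 lineages and in empty droplets, with NOD in red and CD1 in blue. Points are sums over the barcodes of a lineage, bars are exact Poisson intervals, and open triangles mark 0 UMIs. *Pdgfd* was highest in endothelial-like and *Fgf10* in fibroblast-like barcodes of both libraries.

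*Pdgfb*, which encodes the ligand that attracts pericytes, was an endothelial and macrophage transcript. Endothelial-like barcodes held 1841 UMIs in NOD (308 CPM, 294 to 323) and 4489 in CD1 (241 CPM, 234 to 248). Macrophage-like barcodes held 775 UMIs in NOD (179 CPM) and 3646 in CD1 (183 CPM). These classes together held most of the *Pdgfb* transcripts of both libraries, and NK-like barcodes followed by number of UMIs, with 259 in NOD (42.5 CPM) and 158 in CD1 (37.4 CPM). Empty droplets held 51.0 CPM of *Pdgfb* in NOD and 155 CPM in CD1. The endothelial-like and macrophage-like levels lay above these values and the NK-like levels below them. The part of free RNA in the NK-like counts was not tested. A UMI of *Pdgfb* was found in 70.4% of NOD and 71.7% of CD1 endothelial-like barcodes, and in 14.1% and 11.1% after each barcode was thinned to 500 UMIs. In macrophage-like barcodes the thinned shares were 6.24% and 7.13%. In NOD B-like barcodes, which served as a lineage without known *Pdgfb* expression, the share was 1.06% and 0.077% after thinning, at a median depth of 5821 UMIs against 5500.0 in NOD endothelial-like barcodes.

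The *Pdgfb* level was 1.28 times as high in NOD as in CD1 endothelial-like barcodes, a log2 ratio of 0.36 (0.28 to 0.43). The other ligands with at least 20 UMIs in this class were *Pdgfa*, *Pdgfd* and *Fgf1*. None of these 4 ligands passed 2-fold, where 8.32% of 14222 genes with at least 20 UMIs were past 2-fold higher in NOD and 4.01% lower. The libraries drew on different endothelial clusters, since a cluster led by *Rbp7*, *Ednrb* and *Gpihbp1* held 96 NOD and 1123 CD1 barcodes and a cluster with the interferon-induced genes *Rsad2*, *Ifi44* and *Iigp1* among its leading genes held 342 and 302. Within each of the 4 endothelial clusters the NOD level of *Pdgfb* was the higher one, with log2 ratios from 0.33 (0.19 to 0.47) to 0.74 (0.56 to 0.92). The largest of these was in the cluster with interferon-induced genes, at 271 CPM in NOD and 162 CPM in CD1.

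In macrophage-like barcodes the log2 ratio of *Pdgfb* was -0.03 (-0.14 to 0.08). Its interval held 0 and covers counting error, not the mice. The 2 main macrophage clusters were again unequally shared, with 263 NOD and 1702 CD1 barcodes in a cluster led by *Cx3cr1* and 333 and 916 in a cluster led by *Aif1* with a median of 1590.0 UMIs. *Pdgfb* stood at 212 and 196 CPM in the former and at 50.1 and 53.6 CPM in the latter, where it did not exceed the level in empty droplets of the same library. The level thus differed more between these clusters than between the strains within them. In NK-like barcodes the log2 ratio was 0.19, with an interval (-0.11 to 0.48) that held 0.

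*Pdgfd*, whose product is a PDGFRβ ligand activated by proteolysis, was the most endothelial of the 8 ligands by its share of transcripts, 89.0% over both libraries. Endothelial-like barcodes held 6635 UMIs in NOD (1110.5 CPM) and 19328 in CD1 (1036 CPM). Mural-like barcodes followed with 33 UMIs in NOD (473 CPM) and 49 in CD1 (463 CPM), and fibroblast-like barcodes with 124 and 103 CPM. Mural-like barcodes also held endothelial markers, at a summed 803 CPM in NOD and 1039 CPM in CD1. The part of endothelial RNA in their *Pdgfd* level was not tested. The strain difference in endothelial-like barcodes was small, with a log2 ratio of 0.10 (0.06 to 0.14). It went either way within clusters, from -0.25 (-0.32 to -0.18) in a cluster with the arterial genes *Gja4*, *Sox17* and *Sema3g* to 0.32 (0.23 to 0.41) in a cluster led by *Ccdc85a*. *Pdgfb* and *Pdgfd* were both detected in 64.1% of NOD and 67.4% of CD1 endothelial-like barcodes.

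Low *Pdgfd* counts in macrophage-like barcodes came with endothelial markers. In fibroblast-like barcodes the summed endothelial markers stood at 99.9 CPM in NOD and 6.86 CPM in CD1. Macrophage-like barcodes held 135 *Pdgfd* UMIs in NOD (31.3 CPM) and 935 in CD1 (47.0 CPM). The summed level of the 8 endothelial markers was 518 CPM in the 37 NOD macrophage-like barcodes with a *Pdgfd* UMI and 33.3 CPM in those without. In CD1 it was 871 CPM in 237 barcodes with a UMI and 38.9 CPM in the others. For *Pdgfb* the corresponding levels were 97.3 and 40.6 CPM in NOD and 190 and 65.9 CPM in CD1, so that the contrast was smaller. The ratio of *Pdgfb* to *Pdgfd* UMIs was 0.277 in NOD and 0.232 in CD1 endothelial-like barcodes, 5.74 and 3.90 in macrophage-like barcodes, 14.4 and 3.22 in NK-like barcodes, and 1.04 and 0.989 in empty droplets. The macrophage and NK ratios therefore lay above those of endothelial-like barcodes and of empty droplets in both libraries. The part of doublets and free RNA in the low *Pdgfd* counts was not tested. Empty droplets of the CD1 library held 157 CPM of *Pdgfd* against 49.0 in NOD, and the log2 ratios were -3.21 in T-like, -1.97 in NK-like and -0.59 in macrophage-like barcodes. Of the 15 CD1 T-like *Pdgfd* UMIs, 13 lay in 1 barcode. In NK-like barcodes *Pdgfa* and *Pdgfd* were past 2-fold lower in NOD and *Fgf7* higher, where 5.6% of 12424 genes were lower and 5.75% higher. Except for *Fgf7* in NOD (3.45 CPM against 3.06), these NK-like levels lay below those of empty droplets of the same library.

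**Figure D2:**
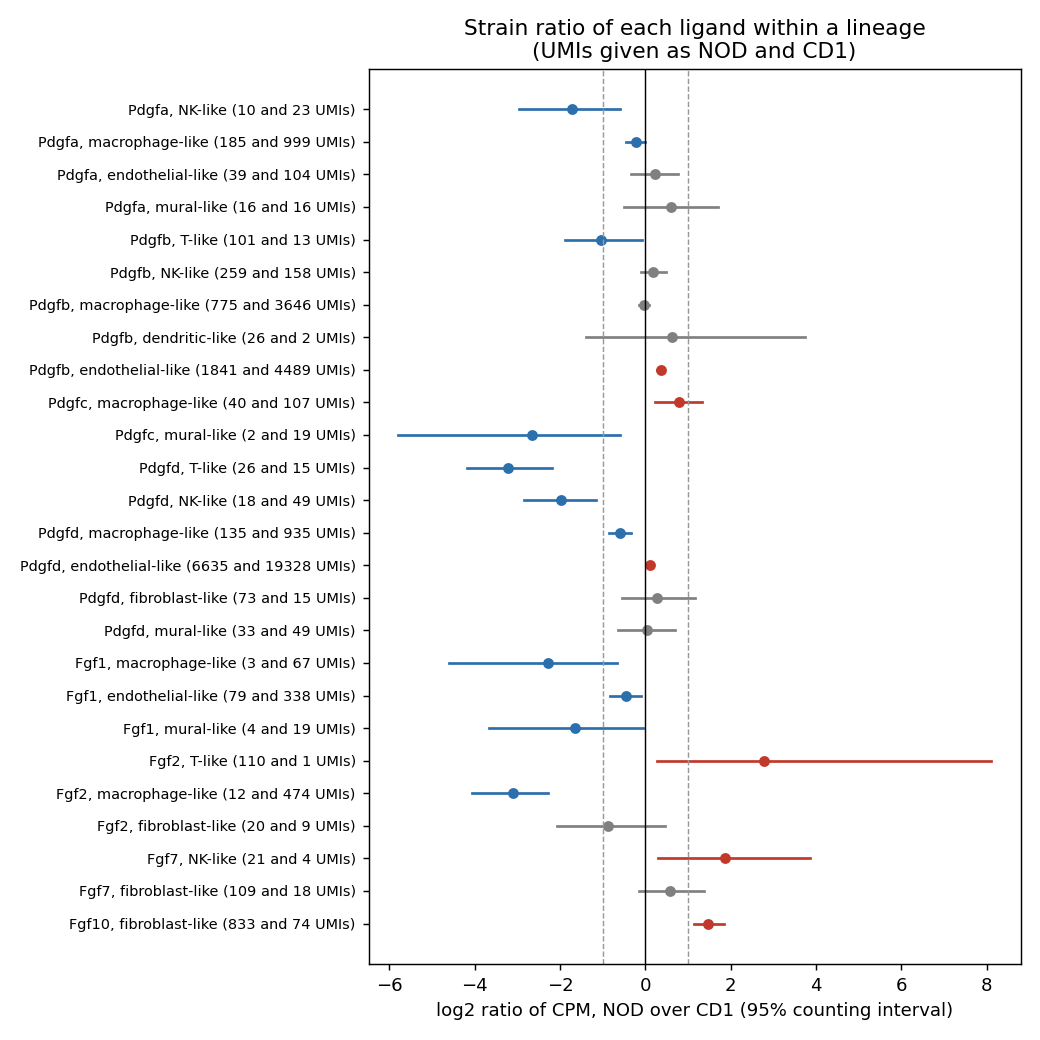
Log2 ratio of NOD over CD1 for each ligand in each lineage with at least 20 UMIs over both libraries and at least 1 in each. Lines are exact 95% counting intervals, dashed lines mark 2-fold, and colour marks intervals above 0 (red), below 0 (blue) or holding 0 (grey). The whole interval lay past 2-fold for *Fgf10* in fibroblast-like, *Fgf2* in macrophage-like and *Pdgfd* in T-like and NK-like barcodes.

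*Pdgfa*, which encodes a PDGFRα ligand, was highest per UMI in mural-like barcodes among the lineages with at least 20 barcodes. The level there was 230 CPM in NOD (16 UMIs in 10 of 14 barcodes) and 151 CPM in CD1 (16 UMIs in 6 of 16 barcodes). The log2 ratio of 0.60 had an interval from -0.49 to 1.70, so that no strain difference was detectable at this depth. With doublets removed, 3 of the 14 NOD and 9 of the 16 CD1 mural-like barcodes remained. This was below the 20 needed for the order, and epithelial-like barcodes led for *Pdgfa*, *Pdgfc* and *Fgf1*. The summed level of the 8 endothelial markers in mural-like barcodes was 803 CPM in NOD and 1039 CPM in CD1. The part of doublets in the mural-like levels was not tested. By number, macrophage-like barcodes were the main holders of *Pdgfa*, with 185 UMIs in NOD (42.8 CPM) and 999 in CD1 (50.2 CPM). Their log2 ratio was -0.23 (-0.46 to -0.0015), and within the *Cx3cr1* cluster it was -0.14 (-0.43 to 0.13). *Pdgfa* was found in 17.1% of NOD and 24.7% of CD1 macrophage-like barcodes, at median depths of 3710.0 and 7600.0 UMIs, and in 1.44% and 2.23% after thinning. No *Pdgfa* UMI was found in the 850 NOD B-like barcodes, which allows up to 0.591 CPM. In macrophage-like barcodes *Pdgfa* and *Pdgfb* were detected together in 92 of 703 NOD and 514 of 2705 CD1 barcodes.

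*Pdgfc*, whose product is a PDGFRα ligand that also needs proteolysis, was the least concentrated in named lineages, as 43.7% of its 458 UMIs lay in unassigned barcodes. Mural-like barcodes held 2 UMIs in NOD, both in 1 barcode (28.7 CPM, 3.48 to 104), and 19 in CD1 in 5 of 16 barcodes (179 CPM, 108 to 280). The log2 ratio of -2.64 had an interval from -5.79 to -0.59. In clusters named from the same markers, 26 CD1 UMIs lay in 8 barcodes led by the smooth muscle genes *Tagln*, *Acta2* and *Myh11* (233 CPM), a cluster with no NOD barcode. The pericyte-like cluster led by *Rgs5* and *Abcc9* held 17 of the 18 NOD and 5 of the 25 CD1 mural barcodes, and 2 *Pdgfc* UMIs in each library. The mural strain ratio thus compared different clusters.

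Macrophage-like barcodes held *Pdgfc* at a low level, with 40 UMIs in NOD (9.26 CPM) and 107 in CD1 (5.38 CPM), a log2 ratio of 0.78 (0.22 to 1.32). The NOD UMIs lay in 18 barcodes, with at most 6 in a barcode. Within the *Cx3cr1* cluster the log2 ratio was 0.65 and its interval (-0.04 to 1.30) held 0. Endothelial-like barcodes held 1 *Pdgfc* UMI in NOD and 3 in CD1, at 0.167 and 0.161 CPM.

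Myoepithelial or basal cells, contractile and progenitor cells around the acini and ducts, were too few to be ranked by marker UMIs, with 2 NOD and 11 CD1 barcodes. Both NOD and 8 of the 11 CD1 barcodes lay just inside the assignment limit, at 60% to 70% of the marker excess. The 2 NOD barcodes also held 1119 CPM of T markers, against 4722 CPM in NOD T-like barcodes. Whether these barcodes were mixed was not tested, and every level given for this class rests on them. Every one of these 13 barcodes held a *Pdgfa* UMI, and all but 1 CD1 barcode held a *Pdgfc* UMI. Their *Pdgfa* level was 262 CPM in NOD and 246 CPM in CD1, against 230 and 151 CPM in mural-like barcodes. In clusters, 5 NOD and 30 CD1 barcodes took this name and their levels over both libraries, 234 CPM of *Pdgfa* and 344 CPM of *Pdgfc*, exceeded those of mural barcodes. The cluster led by *Acta2* and *Myh11* held 693 CPM of *Fgf7* in 2 NOD barcodes and 389 CPM in 13 CD1 barcodes. The other myoepithelial or basal cluster, with the basal gene *Trp63* among its leading genes, held no *Fgf7* UMI in 3 NOD and 17 CD1 barcodes. *Fgf7* was therefore found in the contractile cluster and not in the other.

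Endothelial-like barcodes were divided by artery, capillary and vein markers. There were 44 NOD and 148 CD1 artery-like barcodes, 786 and 1983 capillary-like ones, and 9 and 15 vein-like ones. *Pdgfa* was 37.7 CPM in NOD and 26.0 CPM in CD1 artery-like barcodes, and 4.49 and 4.13 CPM in capillary-like barcodes. The artery level was the higher one in both libraries, with log2 ratios of artery over capillary of 3.07 (1.88 to 4.16) in NOD and 2.65 (1.94 to 3.33) in CD1. *Pdgfb* followed with 0.56 (0.28 to 0.82) and 0.44 (0.27 to 0.60). For *Pdgfd* the ratio was 0.74 (0.60 to 0.87) in NOD and 1.27 (1.21 to 1.34) in CD1. *Fgf1* went the other way, with 1 artery UMI against 73 capillary UMIs in NOD, a log2 ratio of -2.06 whose interval held 0, and 2 against 318 in CD1, a ratio of -3.29 (-6.34 to -1.43). *Pdgfb* was higher in NOD than in CD1 in both subsets, whereas *Pdgfd* was higher in CD1 in artery-like barcodes (1744 and 2216 CPM) and in NOD in capillary-like ones (1045 and 918 CPM). The subsets were defined by other genes than the ligands, but cells of 1 library share their source and the difference was not tested.

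**Figure D3:**
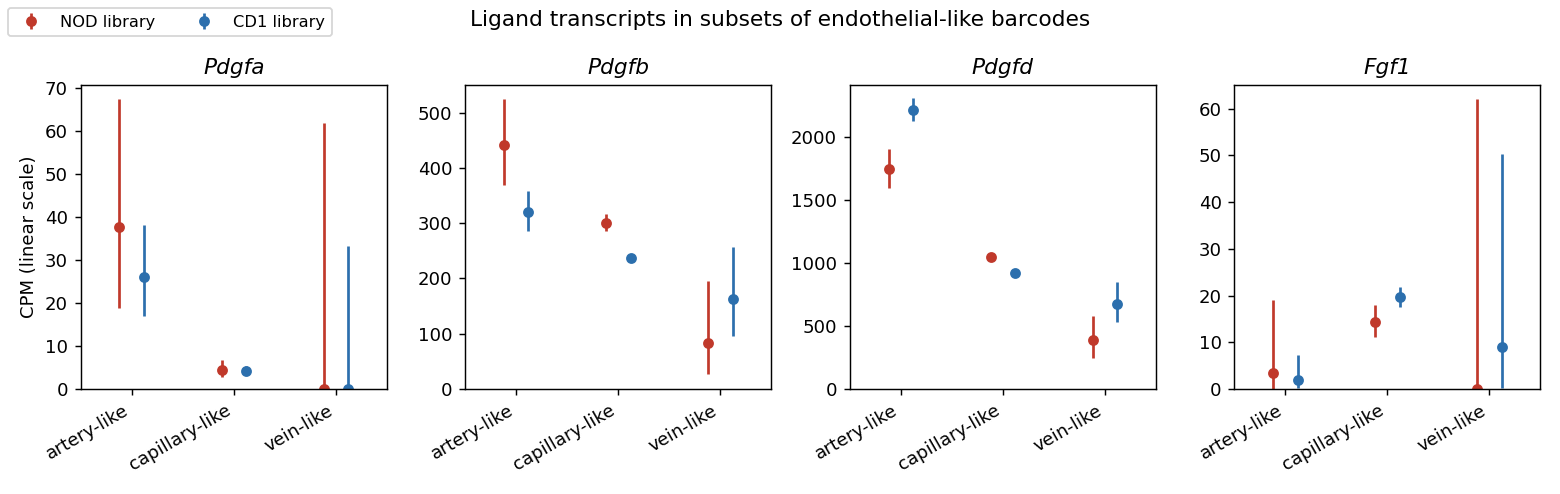
Levels of *Pdgfa*, *Pdgfb*, *Pdgfd* and *Fgf1* (CPM, linear scale) in artery-, capillary- and vein-like barcodes, with NOD in red, CD1 in blue and exact Poisson intervals as bars. The PDGF genes were higher in artery-like than in capillary-like barcodes of both libraries, and *Fgf1* was lower, with wide intervals in the 9 NOD and 15 CD1 vein-like barcodes.

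*Fgf1*, which encodes a ligand able to bind all FGF receptors, was a low transcript of capillary-like endothelium. Among the lineages with at least 20 barcodes its level was highest in mural-like barcodes. Endothelial-like barcodes held 79 UMIs in NOD (13.2 CPM) and 338 in CD1 (18.1 CPM), a log2 ratio of -0.45 (-0.83 to -0.10). The 4 endothelial clusters gave log2 ratios from -0.75 to 0.42, each with an interval that held 0. Mural-like barcodes held 4 UMIs in NOD (57.4 CPM) and 19 in CD1 (179 CPM), and 24 CD1 UMIs lay in the smooth muscle cluster that had no NOD barcode. Myoepithelial- or basal-like barcodes, too few to be ranked, held 9 UMIs in 2 NOD barcodes (157 CPM) and 21 in 5 of 11 CD1 barcodes (143 CPM). Epithelial-like barcodes held 12 UMIs in 10 of 29 CD1 barcodes (65.0 CPM) and 0 in 3 NOD barcodes. In macrophage-like barcodes 3 NOD and 67 CD1 UMIs were found, at 0.695 and 3.37 CPM, both below the level in empty droplets of the same library (1.02 and 6.23 CPM).

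*Fgf2*, which encodes a mitogen of fibroblasts and endothelium, showed the largest strain difference among the 6 ligands with at least 20 UMIs in macrophage-like barcodes. NOD macrophage-like barcodes held 12 UMIs in 8 of 703 barcodes (2.78 CPM, 1.44 to 4.85). CD1 macrophage-like barcodes held 474 UMIs in 304 of 2705 barcodes (23.8 CPM, 21.7 to 26.1), with at most 6 UMIs in a barcode. The level was 8.57 times as high in CD1, a log2 ratio of -3.10 (-4.06 to -2.28), and with doublets removed it was -4.93, from 3 NOD and 458 CD1 UMIs. *Fgf1* and *Fgf2* were the ligands past 2-fold lower in NOD, 2 of 6, against 5.91% of 14741 genes, and none of the 6 was past 2-fold higher, against 7.98%.

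The *Fgf2* difference was also present within the macrophage cluster led by *Cx3cr1*, with 9 UMIs in 263 NOD barcodes (3.39 CPM) and 432 in 1702 CD1 barcodes (26.6 CPM), a log2 ratio of -2.98 (-4.11 to -2.04). Free RNA differed in the same direction, with 4.29 CPM of *Fgf2* in NOD and 15.4 CPM in CD1 empty droplets. The CD1 macrophage level exceeded that of its empty droplets and the NOD level did not. *Fgf2* was rare in CD1 endothelial-like barcodes, where 6 UMIs gave 0.322 CPM, at a median depth of 6945 UMIs against 7600.0 in macrophage-like barcodes. After thinning, 0.900% of CD1 macrophage-like and 0.0209% of CD1 endothelial-like barcodes held a UMI. *Nudt6* overlaps *Fgf2* on the opposite strand, and no source used here says whether counting used strand. The part of *Nudt6* reads in the *Fgf2* counts was not tested. Of the macrophage-like barcodes with an *Fgf2* UMI, 1 of 8 in NOD and 24 of 304 in CD1 also held a *Nudt6* UMI. *Nudt6* stood at 9.03 CPM in NOD and 9.35 CPM in CD1 macrophage-like barcodes.

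T-like barcodes showed the opposite direction for *Fgf2*, with 110 UMIs in 63 of 1680 NOD barcodes (8.72 CPM, 7.17 to 10.5) and 1 UMI in 93 CD1 barcodes (1.27 CPM, 0.0321 to 7.07). The log2 ratio of 2.78 rests on that 1 UMI and has an interval from 0.27 to 8.10. *Fgf2* was the ligand past 2-fold higher in NOD, 1 of 4, against 8.52% of 12803 genes, and *Pdgfb* and *Pdgfd* were past 2-fold lower, against 5.82%. The T-like levels of *Pdgfb* and *Pdgfd* lay below those of empty droplets in both libraries. Among the NOD T-like barcodes, 99 *Fgf2* UMIs lay in the 849 with *Cd4* and no *Cd8a* UMIs (14.7 CPM) and 3 in the 471 with *Cd8a* and no *Cd4* UMIs (0.836 CPM). A cluster led by *Ctla4* and *Ikzf2*, genes of regulatory T cells, held 116 UMIs in 672 NOD barcodes (26.4 CPM), some of them not assigned by marker UMIs, and no UMI in 6 CD1 barcodes. The other T clusters led by *Lef1* or *Cd8a* held 4 and 2 NOD UMIs, so that *Fgf2* was concentrated in 1 cluster, which was hardly sampled in CD1.

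In fibroblast-like barcodes *Fgf2* stood at 33.9 CPM in NOD (20 UMIs in 13 of 56 barcodes) and 61.7 CPM in CD1 (9 UMIs in 5 of 15 barcodes). The interval of the log2 ratio of -0.87 (-2.07 to 0.45) held 0, and no strain difference was detectable at this depth.

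*Fgf10*, which encodes a mesenchymal ligand of epithelial FGFR2, was led by fibroblast-like barcodes, which held 98.3% (97.2 to 99.1) of its UMIs in NOD and 71.2% (61.4 to 79.6) in CD1. The other CD1 UMIs included 16 in unassigned, 7 in NK-like and 6 in epithelial-like barcodes. NOD fibroblast-like barcodes held 833 UMIs in 48 of 56 barcodes (1410.3 CPM, 1316 to 1509). CD1 fibroblast-like barcodes held 74 UMIs in 10 of 15 barcodes (508 CPM, 399 to 637). The level was 2.78 times as high in NOD, a log2 ratio of 1.47 (1.13 to 1.84), where the median over the genes of this lineage was 0.12. With doublets removed the log2 ratio was 2.65, and it rested on 12 CD1 UMIs in 8 barcodes. *Fgf10* was the only ligand of 4 past 2-fold higher in NOD, against 15.1% of 6176 genes, and none of the 4 was past 2-fold lower, against 6.31%.

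The *Fgf10* level varied widely among barcodes. In NOD the lowest barcode held 0, the median 5 and the highest 95 UMIs, and in CD1 the values were 0, 4 and 15. As CPM of single barcodes, the medians were 626 and 224 and the highest values 7227 and 1167. The groups overlapped, since CD1 barcodes lay within the range of NOD barcodes. A UMI was found in 85.7% of NOD and 66.7% of CD1 fibroblast-like barcodes, and in 35.2% and 18.0% after thinning, at median depths of 10675.5 and 12631 UMIs. No *Fgf10* UMI was found in macrophage-like barcodes of either library, which allows a level of up to 0.695 CPM in NOD and 0.151 CPM in CD1.

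*Fgf7*, which encodes keratinocyte growth factor, was also led by fibroblast-like barcodes among the lineages with at least 20 barcodes, with 109 UMIs in 34 of 56 NOD barcodes (185 CPM) and 18 UMIs in 7 of 15 CD1 barcodes (123 CPM). The log2 ratio of 0.58 had an interval from -0.15 to 1.39 that held 0. Of the NOD fibroblast-like barcodes 33 held both *Fgf7* and *Fgf10*, 15 held *Fgf10* alone and 1 held *Fgf7* alone, and in CD1 the counts were 7, 3 and 0. *Fgf10* was found beside *Pdgfra* in 44 NOD and 9 CD1 barcodes. T-like barcodes held 32 *Fgf7* UMIs in NOD (2.54 CPM, below the 3.06 CPM of NOD empty droplets) and none in CD1, where 0 UMIs allow up to 3.81 CPM. The myoepithelial- or basal-like barcodes, below that minimum, held 9 *Fgf7* UMIs in NOD (157 CPM) and 36 in CD1 (246 CPM, 172 to 340), so that in CD1 their level was above that of fibroblast-like barcodes. In NK-like barcodes 21 NOD and 4 CD1 UMIs gave 3.45 and 0.947 CPM, against 3.06 and 4.45 CPM in empty droplets.

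**Figure D4:**
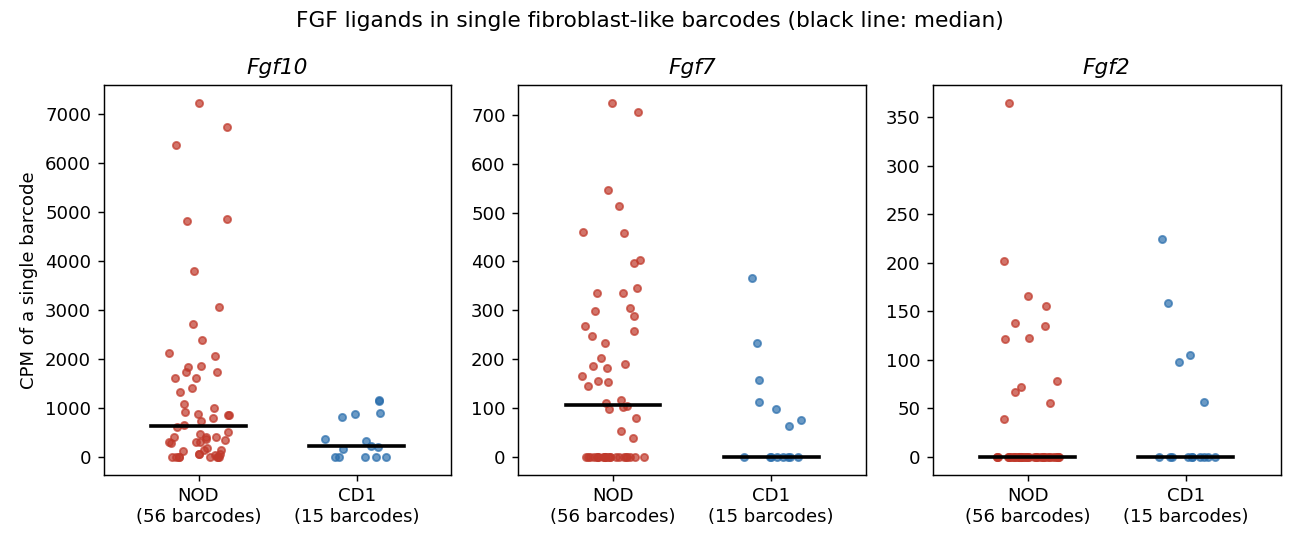
CPM of *Fgf10*, *Fgf7* and *Fgf2* in each fibroblast-like barcode of the NOD (red) and CD1 (blue) library, with the median as a black line. For *Fgf10* the medians were 626 and 224 CPM and the highest barcodes 7227 and 1167 CPM.

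Over all barcodes of a library, the lineage mix enters each level. *Pdgfa*, *Pdgfb*, *Pdgfc*, *Pdgfd*, *Fgf1* and *Fgf2* were past 2-fold lower in NOD, with log2 ratios from -1.83 to -1.23, and *Fgf7* (1.07) and *Fgf10* (3.21) were past 2-fold higher. All 8 ligands thus passed 2-fold, where 14.6% of 19827 genes were lower and 15.9% higher. When the lineages of both libraries were given the same weights, the log2 ratio was -0.43 for *Pdgfa*, 0.07 for *Pdgfb*, -0.71 for *Pdgfc*, -0.12 for *Pdgfd* and -0.82 for *Fgf1*. It was 0.30 for *Fgf7*, 1.27 for *Fgf10* and -1.31 for *Fgf2*. *Fgf2* and *Fgf10* were the ligands that remained past 2-fold. Fewer cells of a lineage and less RNA per cell cannot be told apart in the library-wide values.

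The receptor genes were led by fibroblast-like, mural-like, endothelial-like and epithelial-like barcodes. *Pdgfra* was found in fibroblast-like barcodes at 1141 CPM in NOD and 988 CPM in CD1, and no UMI of it was found in mural-like barcodes. Its log2 ratio in fibroblast-like barcodes was 0.21, with an interval (-0.05 to 0.48) that held 0. *Pdgfrb* was highest in mural-like barcodes, at 1578 CPM in NOD and 642 CPM in CD1, a log2 ratio of 1.30 (0.85 to 1.76) that again compares different mural clusters. That ratio was not recomputed with doublets removed, where 3 NOD and 9 CD1 mural-like barcodes remained. In fibroblast-like barcodes *Pdgfrb* stood at 174 and 226 CPM, with an interval of the log2 ratio that held 0. *Fgfr1* was led by fibroblast-like barcodes at 193 and 172 CPM. *Fgfr2*, the receptor of FGF7 and FGF10, stood at 18.1 and 10.7 CPM in endothelial-like barcodes, a log2 ratio of 0.75 (0.40 to 1.10), and at 3 UMIs in the few epithelial-like barcodes left after EpCAM depletion. The 2 NOD and 11 CD1 myoepithelial- or basal-like barcodes, too few to be ranked, held 9 and 15 *Fgfr2* UMIs, at 157 and 102 CPM. *Fgfr3* stood at 20.1 and 22.3 CPM in endothelial-like barcodes, and 1 UMI of *Fgfr4* was found in all 11 lineages. *Pdgfb* and *Pdgfd* thus had their largest share in endothelial-like barcodes, while macrophage-like ones held 23.8% of the *Pdgfb* UMIs in NOD and 41.3% in CD1. The level of their receptor gene *Pdgfrb* was highest in mural-like barcodes. These held 40.4% of its UMIs in NOD and 40.5% in CD1, against 37.9% and 19.6% in fibroblast-like barcodes. *Fgf10* and *Pdgfra* lay mainly in the same lineage, fibroblast-like barcodes.

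**Figure D5:**
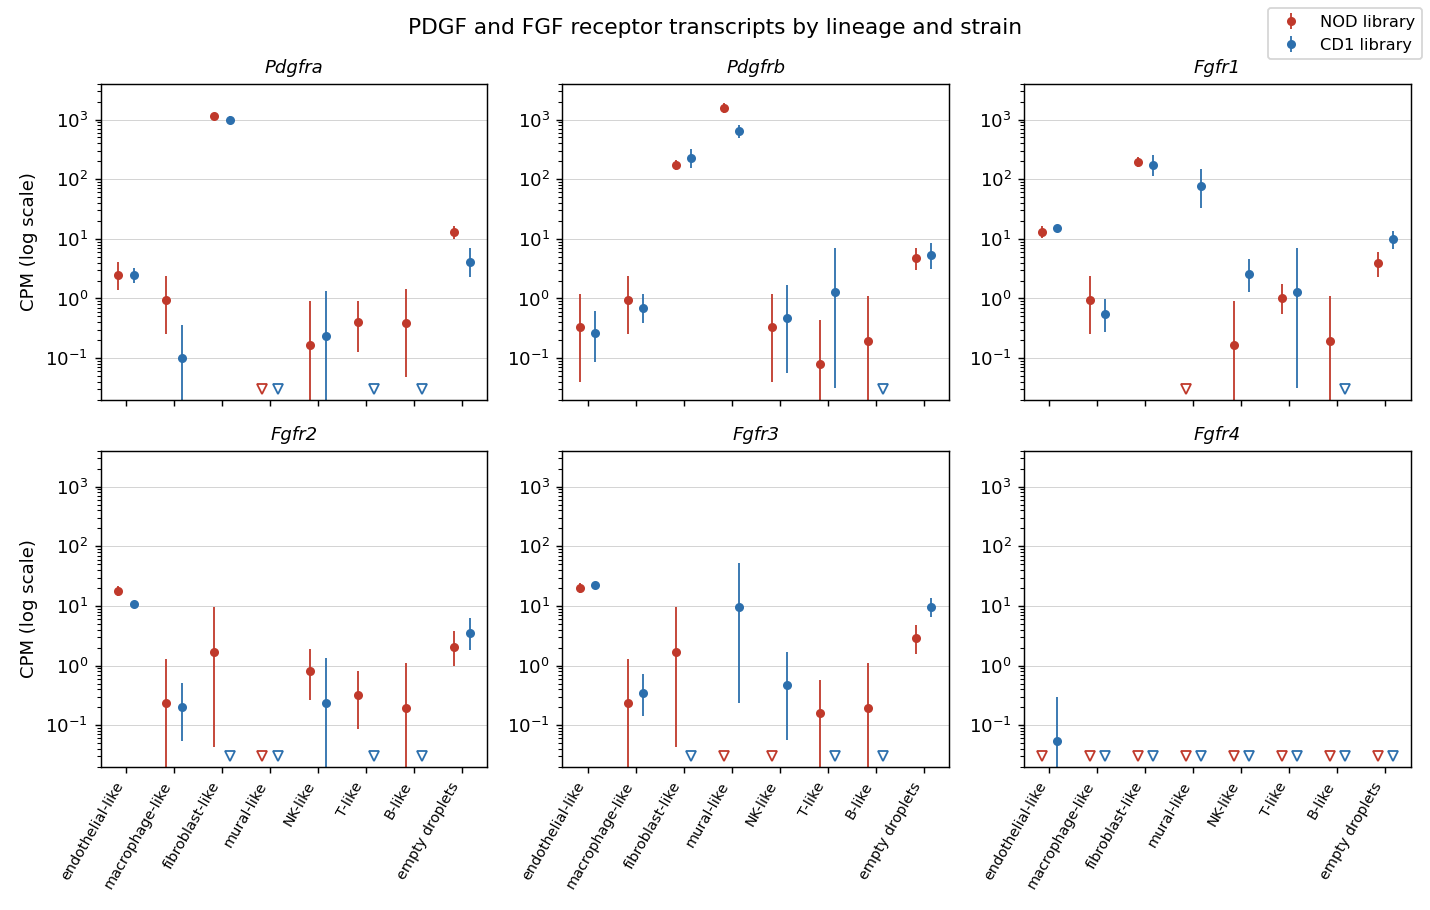
Level of the PDGF and FGF receptor genes (CPM, log scale) in 7 lineages and in empty droplets, with NOD in red, CD1 in blue, exact Poisson intervals as bars and open triangles for 0 UMIs. *Pdgfra* was highest in fibroblast-like and *Pdgfrb* in mural-like barcodes of both libraries.

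Of a list of 62 genes of the PDGF and FGF pathways, 35 had at least 20 UMIs in endothelial-like barcodes. There, 3 genes were past 2-fold higher in NOD, *Pdgfrl* and *Sdc4* among them, and 1 gene, *Spry1*, was past 2-fold lower. Of all 14222 genes 8.32% were higher and 4.01% lower, so that these counts were near the shares over all genes. *Spry1*, a feedback inhibitor of receptor tyrosine kinase signalling, stood at 21.3 CPM in NOD and 53.2 CPM in CD1, a log2 ratio of -1.32 (-1.60 to -1.06). *Kdr*, which encodes the VEGF receptor 2 and is also a nintedanib target, had a log2 ratio of -0.57 (-0.60 to -0.54). It was itself among the leading genes of the endothelial cluster led by *Rbp7*, which held 96 NOD and 1123 CD1 barcodes. Ratios of *Kdr* and *Spry1* within clusters were not computed, so that strain and cluster mix cannot be told apart for them.

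In macrophage-like barcodes 10 of 32 list genes passed 2-fold, 4 higher and 6 lower in NOD, where 7.98% of all genes were higher and 5.91% lower. *Kdr* and *Flt1*, endothelial receptor genes, were among those that were lower. *Flt4*, listed with them among the nintedanib receptors, was higher, at 7.18 against 2.92 CPM, a log2 ratio of 1.30 (0.62 to 1.95). The summed endothelial markers in macrophage-like barcodes were lower in NOD, at 80.1 against 157 CPM. The part of endothelial RNA in these ratios was not tested. *Spry2* was higher in NOD, at 9.96 against 3.02 CPM. Of the 9 feedback inhibitors and ERK targets counted there, 3 were past 2-fold higher (*Spry2*, *Spred3* and *Il17rd*) and 1 was lower (*Spry4*). The median log2 ratio of these 9 genes was -0.25. *Plau*, the urokinase gene whose product can activate PDGF-D, stood at 84.5 CPM in NOD and 143 CPM in CD1, a log2 ratio of -0.76 (-0.92 to -0.60).

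In fibroblast-like barcodes 6 of 25 list genes passed 2-fold, 1 higher and 5 lower in NOD, where 15.1% of all genes were higher and 6.31% lower. *Spred1*, a feedback inhibitor of ERK signalling, was higher in NOD, at 342 against 165 CPM. *Pdgfrl*, *Plat*, *Sdc2*, *Gpc4* and *Fgf12* were lower, among them *Plat*, the tissue plasminogen activator gene whose product can activate PDGF-C, at 76.2 against 199 CPM. In mural-like barcodes 5 of 9 list genes were past 2-fold higher and 2 lower, and 2 of 4 ligands were lower, where 20.9% of 1749 genes were higher and 20.8% lower.

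The genes whose levels over the 13 sums of a lineage in a library were most like those of a ligand were found by Pearson correlation of log2(CPM + 10), as a description over points that share libraries. *Pdgfd* was most like *Eng* (r = 0.99), *Ptprm* and *Fzd4*, and *Pdgfb* most like *Arap3* (0.95), *Elovl1* and *Smox*. *Fgf10* was most like *Maob*, *Adamts15* and *Gm44758*, and *Fgf7* most like *Gpr153*, *Adcy5* and *Omd*. *Pdgfa* was most like *Pdlim4* (0.97), *Spire1* and *Tmem141*, *Pdgfc* most like *Slc9a4*, *Mycbpap* and *Dtna*, *Fgf1* most like *Gprc5b*, *Gm35655* and *Tcaf2*, and *Fgf2* most like *Ahnak2* (0.91), *Cfhr2* and *Gm6994*. Only sums of at least 20 barcodes in a library were used, so that no mural-like sum was among the 13. The likeness of *Pdgfa*, *Pdgfc* and *Fgf1* was thus computed without the lineage that led them. The only fibroblast-like sum was that of the 56 NOD barcodes, on which the likeness of *Fgf7* and *Fgf10* mainly rests. Several of these genes held fewer than 100 UMIs in all.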

How the data were processed

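The authors deposited, for 1 NOD and 1 CD1 library, unfiltered matrices of UMI counts per gene and barcode. The submitters' processing notes name Cell Ranger 8.0.0, GRCm39, Seurat 5.0.1 and R 4.3.1. The NOD matrix held 52790319 UMIs over 1298073 barcodes and the CD1 matrix 56483149 over 1331542. No source used here says whether counting used strand.

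Barcodes with at least 500 UMIs and 300 genes were kept, with no mitochondrial limit and no doublet removal. Barcodes of 10 to 100 UMIs were taken as empty droplets. A lineage needed at least 3 different markers, 5 marker UMIs above the level expected from empty droplets and 60% of the excess over 15 marker lists. The limits were kept after the data were seen. Sums of UMIs over each lineage in each library were scaled to CPM, their intervals are exact Poisson limits, and log2 ratios have exact conditional binomial intervals at 95%. Shares of barcodes with a UMI were also computed after thinning to 500 UMIs. A count of 0 was given a limit of 3 UMIs. Ratios were counted past 2-fold for genes with at least 20 UMIs in a lineage, with 0 UMIs set to that limit. There was no test, since there was 1 library per strain, and cells were not treated as replicates. Intervals were checked on lineage sums simulated from the same Poisson model that they assume. That check held no clumping of UMIs in single barcodes, so it cannot show how well the intervals cover counts that are clumped.

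Scrublet and Leiden clusters (scanpy 1.11.5, Python 3.11.15) served as alternatives. The clusters were computed without the ligand and pathway genes and named from the same markers, and their settings, the *Cd4* and *Cd8a* division and the clusters named in the text were chosen after data were seen. The ligands, marker lists and 62 pathway genes were chosen with earlier results of these data known. The genes named are the 8 ligands, the pathway list and, for each ligand with at least 100 UMIs, the 3 genes with the most similar levels, among genes with at least 50 UMIs. One gene of the pathway list is not reported by name or value here.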

Additional observations from a re-analysis of the deposited data

Results flagged for a closer look

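For 4 ligands the strain ratio lay above 0 in one lineage and below 0 in another, with both counting intervals clear of 0. The difference between lineages was not tested, since each strain had 1 library. *Pdgfb* had a log2 ratio of NOD over CD1 of 0.36 in endothelial-like and -1.04 in T-like barcodes. The latter came from 13 CD1 UMIs, at levels below those of empty droplets in both libraries. *Pdgfc* had 0.78 in macrophage-like and -2.64 in mural-like barcodes, the latter from 2 NOD UMIs. *Pdgfd* had 0.10 in endothelial-like barcodes against -3.21 in T-like, -1.97 in NK-like and -0.59 in macrophage-like barcodes, and all 15 CD1 T-like UMIs lay in 3 barcodes. *Fgf2* had 2.78 in T-like barcodes, from 1 CD1 UMI, and -3.10 in macrophage-like barcodes.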

How the results depend on the processing

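No paired analysis was possible because each strain had 1 library. Of 136 values recomputed under alternatives, 122 stayed within the counting interval of the reported value (or within 1.5 times a reported count), 13 moved out of it and 1 called value changed sign. With doublets removed, *Fgf2* in macrophage-like barcodes had a log2 ratio of -4.93 (3 and 458 UMIs) and *Fgf10* in fibroblast-like barcodes of 2.65 (712 and 12 UMIs, 47 and 8 barcodes). *Pdgfa* in mural-like barcodes then had -0.10 (1 and 9 UMIs, 3 and 9 barcodes), within its wide interval, and *Pdgfc* and *Fgf1* there gave no value. The cause of these shifts was not tested. In that setting 5 of 8 ligands had the same leading lineage, because mural-like barcodes fell below 20 and epithelial-like ones led for *Pdgfa*, *Pdgfc* and *Fgf1*. By clusters 6 of 8 did, as myoepithelial or basal barcodes led for *Pdgfa* and *Pdgfc*. With free RNA subtracted at a share taken from 12 secretory genes, *Pdgfb* and *Pdgfd* in endothelial-like barcodes had log2 ratios of 0.57 and 0.33. That share came to 100% of the UMIs of NOD macrophage-like barcodes, so that it gave no value for *Pdgfa* and *Fgf2* there. A share taken from the markers of other lineages, which was added after those values had been seen, was between 0 and 6.02% and left all 11 ratios within their intervals, so the result of the subtraction depends on how the share is estimated. With median-of-ratios scaling *Pdgfd* in endothelial-like barcodes had 0.031, and with the mean CPM of single barcodes *Pdgfa* in macrophage-like barcodes had -0.63. With equal lineage weights, the library-wide ratio changed sign for *Pdgfb* (0.067) and moved for *Pdgfa* (-0.43), *Pdgfc* (-0.71), *Pdgfd* (-0.12), *Fgf1* (-0.82), *Fgf7* (0.30) and *Fgf10* (1.27). The mitochondrial limit, the higher depth minimum and the other marker limits moved no value out of its interval. Values in mural-like barcodes (14 and 16) and fibroblast-like barcodes (56 and 15) are limited by the number of cells.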
